A study of Mus musculus with 6 samples.

Results

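The genes described here are 29 genes of sterol and fatty acid synthesis, chosen by name with earlier results of these data known. They are 18 enzymes of cholesterol synthesis and 6 genes of fatty acid synthesis, desaturation and elongation. With them are 4 regulators of the SREBP transcription factors, and Stard4, a carrier of cholesterol between membranes. All 29 were found among the 18341 genes of the deposited table, and all 29 reached the mean of 1 CPM (read count scaled to library size) at which genes were tested, as did 12824 genes in all. The libraries are of monocytes sorted from subcutaneous B16.F10 melanomas of C57BL/6 mice on day 13 after the tumour cells were injected. In 3 libraries the injected melanoma cells overexpressed BAFF, the B cell activating factor, and in the other 3 they were control cells. The change was made in the tumour cells and not in the monocytes, and the labels name neither the vector nor whether the line is 1 clone. Whether each library is from a different mouse is not in the labels; p-values therefore measure only the spread between these samples, which may be technical.

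Cholesterol is built from acetyl-CoA by way of mevalonate, squalene and lanosterol, and fatty acids are built from acetyl-CoA by way of malonyl-CoA. SREBP proteins, encoded by Srebf1 and Srebf2, are held in the endoplasmic reticulum by SCAP and INSIG while sterols are plentiful, and move to the Golgi apparatus for cleavage when sterols run low. Their cleaved forms enter the nucleus and switch on both pathways, SREBP2 mainly the sterol genes and SREBP1 mainly the fatty acid genes, together with the CCAAT-binding factor NF-Y. Macrophages also take up cholesterol from lipoproteins and dying cells, and cells that are loaded with it lower their own synthesis.

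Each value below is a scaled CPM, the deposited CPM divided by a size factor of its library, because the listed genes held unequal shares of the library totals. With the values taken as CPM, that share was 39.8 to 66.1%, with the lowest values in control tumour libraries 2 and 3. The size factors ran from 0.6701 to 1.27. One CPM stood for 4.72 to 27.6 reads, so the floor of 3 reads lay at 0.109 to 0.635 CPM, for counting error alone. Over all tested genes 7.18% were called higher and 9.91% lower in BAFF tumour libraries (limma, Benjamini-Hochberg adjusted p under 0.05), with a median log2 fold change of 0.01. On the deposited scale that median was 0.23, and 1.81% were called higher and 3.50% lower. Monocyte markers were abundant in each library: Lyz2, a macrophage and monocyte lysozyme, stood at 4434, 5238 and 4921 scaled CPM in BAFF tumour libraries and 4553, 2979 and 4353 in controls.

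The region just upstream of a start site is where SREBP and NF-Y act on these genes, so 6 of these regions are shown, 5 of enzymes that rose with BAFF and that of Srebf2. They come from RefSeq (GRCm38.p6), which held 23 of the 29 genes, and each is the 180 bases before an annotated start. Capitals mark the box CCAAT, or its complement ATTGG, and the sterol element letters TCACNCCAC or TCACCCCA.
Hmgcs1: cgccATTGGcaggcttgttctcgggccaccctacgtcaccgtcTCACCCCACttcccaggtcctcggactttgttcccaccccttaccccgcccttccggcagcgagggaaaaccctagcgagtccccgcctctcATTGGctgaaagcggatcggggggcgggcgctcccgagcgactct
Srebf2: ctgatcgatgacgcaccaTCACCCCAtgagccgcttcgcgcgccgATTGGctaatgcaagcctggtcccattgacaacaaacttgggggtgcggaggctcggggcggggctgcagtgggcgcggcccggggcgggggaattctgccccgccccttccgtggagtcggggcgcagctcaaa
Msmo1: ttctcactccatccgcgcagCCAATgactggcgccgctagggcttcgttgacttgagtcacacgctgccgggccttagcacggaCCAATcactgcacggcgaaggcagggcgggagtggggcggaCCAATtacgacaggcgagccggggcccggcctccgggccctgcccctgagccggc
Cyp51: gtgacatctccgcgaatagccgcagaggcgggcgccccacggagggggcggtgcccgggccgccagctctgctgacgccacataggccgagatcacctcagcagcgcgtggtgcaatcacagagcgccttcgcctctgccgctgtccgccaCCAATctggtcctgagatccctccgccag
Idi1: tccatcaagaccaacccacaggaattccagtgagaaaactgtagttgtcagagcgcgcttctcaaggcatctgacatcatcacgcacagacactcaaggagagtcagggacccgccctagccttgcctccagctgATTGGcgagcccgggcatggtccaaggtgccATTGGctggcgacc
Sc5d: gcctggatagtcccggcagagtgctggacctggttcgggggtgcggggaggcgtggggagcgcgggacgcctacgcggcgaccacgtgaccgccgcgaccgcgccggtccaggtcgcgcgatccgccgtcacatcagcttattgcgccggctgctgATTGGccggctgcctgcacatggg
The positions are chr13:119690171-119690350, plus strand, for Hmgcs1; chr15:82147089-82147268, plus strand, for Srebf2; chr8:64733579-64733758, minus strand, for Msmo1; chr5:4104698-4104877, minus strand, for Cyp51; chr13:8885426-8885605, plus strand, for Idi1; and chr9:42264301-42264480, minus strand, for Sc5d. Within 250 bases upstream and on either strand, CCAAT was present at 14 of 15 sterol enzymes and at 18 of the 23 genes, against 37.5% of all 27025 genes in the RefSeq table. The 5 genes without it were Acat2, Acaca, Elovl6, Fads2 and Scap. The 14 enzymes with it include Mvk, Mvd, Lss, Tm7sf2, Nsdhl, Hsd17b7, Ebp and Dhcr7, which were not called higher with BAFF. Pmvk, which also rose, is not among the regions shown, and has CCAAT before only 1 of its annotated starts. TCACNCCAC was found at 1 gene, Hmgcs1 (1.22% of all genes), and TCACCCCA, which overlaps that match, at Hmgcs1 and Srebf2 (1.54% of all genes). A match is a run of letters and not a measured binding site, and other spellings of the sterol element were not searched.

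Of the 29 genes 10 passed, 9 as higher and 1 as lower in libraries from BAFF tumours, against 17.1% of all tested genes that passed in either direction. Most of the rises were of sterol enzymes. Of 18 tested, 8 rose, 0 fell and 10 did not pass, against 7.18% of all tested genes that rose (10 had an unadjusted limma p under 0.05 as higher and 1 as lower, against 14.8% and 15.8% of all tested genes). The 8 were Hmgcs1, Pmvk, Idi1, Fdps, Fdft1, Cyp51, Msmo1 and Sc5d, with log2 fold changes from 0.45 to 0.84, and the median over the 18 was 0.43, against 0.01 over all genes. In 11 of the 18 the BAFF tumour libraries all lay above the controls, which held for 17.3% of all tested genes. The genes were chosen with earlier results known, so shares above those of all genes are not a test of the set. The median was 0.28 without control tumour 1, the library with the lowest value of 15 of the 18 enzymes, and 6 enzymes then passed as higher. BAFF tumour library 3 had the highest value of 13 of the 18.

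**Figure D1:**
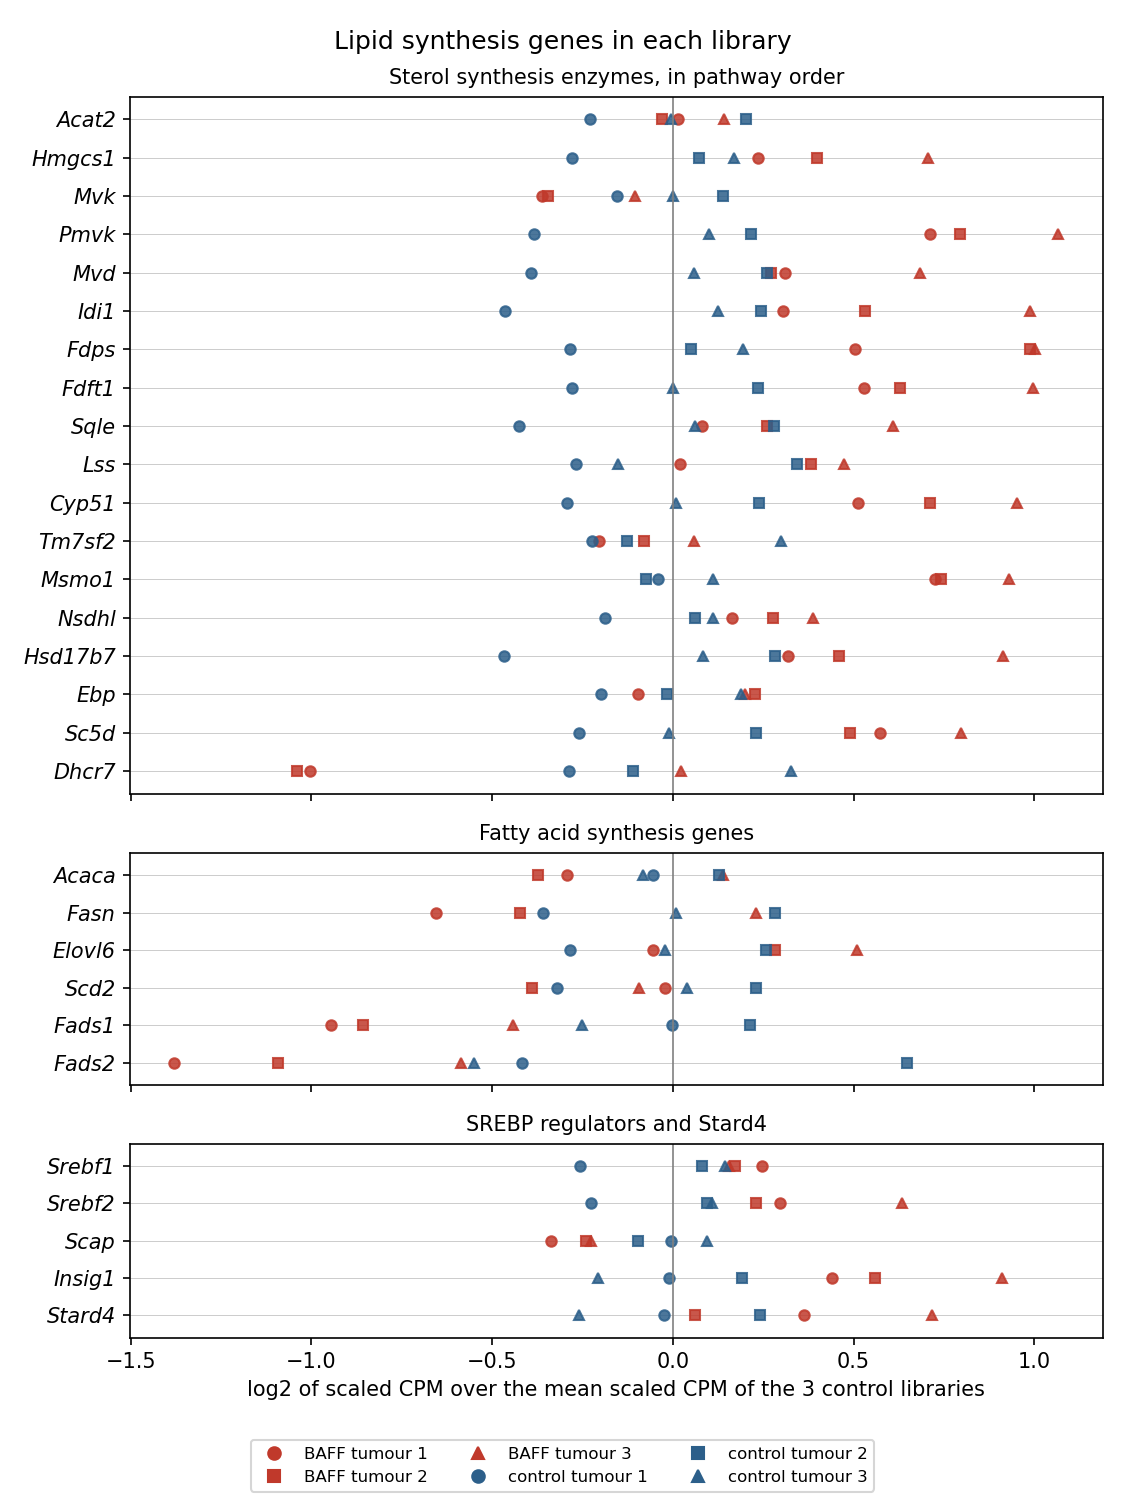
Each point is the log2 of a library's scaled CPM over the mean scaled CPM of the 3 control libraries, for 18 sterol enzymes in pathway order, 6 fatty acid genes, 4 regulators and Stard4. BAFF tumour library 3 is the rightmost point for 13 of 18 sterol enzymes and control tumour library 1 the leftmost for 15, while Fads1 has its 3 BAFF tumour libraries left of the controls.

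The first steps make the isoprenoid building blocks. Hmgcs1, the cytosolic HMG-CoA synthase, stood at 81.4, 91.1 and 113 scaled CPM in BAFF tumour libraries 1, 2 and 3 and at 56.9, 72.7 and 77.7 in control tumour libraries 1, 2 and 3. The groups did not overlap, and Hmgcs1 rose by 0.45 ± 0.14 on the log2 scale (the error is the SE), close to the threshold at a limma adjusted p of 0.0468. It was lost in 4 of 6 fits that left out 1 library, without BAFF tumour 2 or 3 or control tumour 1 or 2 (adjusted p at most 0.157), and also with upper-quartile factors (0.0738), a filter at 5 CPM (0.0779), no trend (0.116) or a pseudocount of 0.1 (0.0516). Pmvk, phosphomevalonate kinase, stood at 25.6, 27.1 and 32.7 scaled CPM with BAFF and 11.98, 18.2 and 16.7 in controls. It had the largest log2 fold change of the 18, 0.84 ± 0.16 (adjusted p = 0.00359), and every BAFF tumour library lay well above every control. Idi1, the isomerase that makes dimethylallyl diphosphate, stood at 48.99, 57.3 and 78.6 scaled CPM with BAFF and 28.8, 46.97 and 43.2 in controls. BAFF tumour 1 was only just above control tumour 2 here, and the call (0.63 ± 0.19, adjusted p = 0.0432) was not kept when BAFF tumour 2, BAFF tumour 3, control tumour 1 or control tumour 3 was left out (adjusted p at most 0.144). Idi1 also lost its call with upper-quartile factors (0.062), a filter at 5 CPM (0.068) and no trend (0.107). Fdps, which makes farnesyl diphosphate, the branch point to sterols and protein prenylation, stood at 38.6, 53.98 and 54.4 scaled CPM with BAFF and 22.3, 28.2 and 31.1 in controls (0.82 ± 0.15, adjusted p = 0.00365). Its 2 highest BAFF tumour libraries were nearly equal, and its controls all lay lower than BAFF tumour 1. In GENCODE M21 its exons share 1124 bases with Gm43738 on the same strand, and those of Hmgcs1 557 and of Idi1 323 with genes on the opposite strand, so such reads are uncertain.

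The other 3 genes of this arm did not pass. Mvd, the decarboxylase that yields isopentenyl diphosphate, had a log2 fold change of 0.42 ± 0.17 and did not pass (adjusted p = 0.124), with BAFF tumour 2 at 15.02 scaled CPM beside control tumour 2 at 14.9. Mvk, mevalonate kinase, stood at 4.17, 4.22 and 4.99 scaled CPM with BAFF and 4.82, 5.902 and 5.37 in controls (-0.22 ± 0.16, adjusted p = 0.397), with overlapping groups. On the deposited scale its log2 fold change was -0.014 (limma adjusted p = 0.985). Acat2, the thiolase that makes acetoacetyl-CoA, had overlapping groups and a log2 fold change of 0.05 ± 0.15 (adjusted p = 0.879). Acat2 has a near-identical neighbour in the mouse genome, so its reads are uncertain.

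Farnesyl diphosphate is then joined into squalene and closed into lanosterol. Fdft1, squalene synthase, stood at 21.8, 23.3 and 30.1 scaled CPM with BAFF and 12.4, 17.8 and 15.1 in controls (0.70 ± 0.16, adjusted p = 0.00973). The groups did not overlap. In GENCODE M21 its exons share 774 bases with Ctsb on the opposite strand, and the kit did not mark strand, so Fdft1 reads are uncertain; Ctsb, cathepsin B, stood at 2648 ± 221 and 2831 ± 285 scaled CPM (SD, n = 3; log2 fold change -0.09 ± 0.15). Sqle, squalene epoxidase, a rate-limiting oxygen-dependent step, stood at 34.2, 38.8 and 49.4 scaled CPM with BAFF and 24.1, 39.3 and 33.8 in controls and did not pass (0.34 ± 0.17, adjusted p = 0.223). Control tumour 2 reached above 2 of the 3 BAFF tumour libraries. Lss, lanosterol synthase, 381 bases of which are also in an antisense gene, did not pass either (0.29 ± 0.17, adjusted p = 0.295).

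Of the 8 enzymes that trim lanosterol to cholesterol, 3 rose. Cyp51, the lanosterol demethylase, stood at 104, 119.9 and 142 scaled CPM with BAFF and 59.7, 86.4 and 73.6 in controls, the highest level per kilobase of the 18 enzymes. Its groups were well apart, with a log2 fold change of 0.73 ± 0.14 (adjusted p = 0.00464). Its exons share 166 bases with Akap9 on the other strand, which did not pass at -0.32 ± 0.12. Msmo1, the oxidase that removes the C4 methyl groups, stood at 54.6, 55.2 and 62.96 scaled CPM with BAFF and 32.1, 31.4 and 35.7 in controls. It had the smallest adjusted p of the 29 genes, 0.000466, at a log2 fold change of 0.78 ± 0.11. Sc5d, the desaturase of the last steps, stood at 32.7, 30.8 and 38.2 scaled CPM with BAFF and 18.3, 25.8 and 21.8 in controls (0.61 ± 0.14, adjusted p = 0.00988), again without overlap. Hsd17b7 (0.54 ± 0.20, adjusted p = 0.0816), the 3-keto reductase, and Nsdhl (0.25 ± 0.14, adjusted p = 0.258), the sterol decarboxylase, had groups that did not overlap and did not pass.

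The remaining 3 genes of this arm did not pass. Ebp, the sterol isomerase, had overlapping groups (0.11 ± 0.13, adjusted p = 0.607). Tm7sf2, a sterol reductase whose exons share 532 bases with Vps51, had a log2 fold change of -0.05 ± 0.15 (adjusted p = 0.847), and 0.19 on the deposited scale. Dhcr7, the enzyme of the final reduction to cholesterol, stood at 4.27, 4.16 and 8.69 scaled CPM with BAFF and 7.02, 7.92 and 10.7 in controls. BAFF tumour libraries 1 and 2 were lower than every control, and BAFF tumour library 3 was not. Its log2 fold change was -0.56 ± 0.24 (adjusted p = 0.143), and it passed as lower when BAFF tumour 3 was left out (adjusted p = 0.0193).

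**Figure D2:**
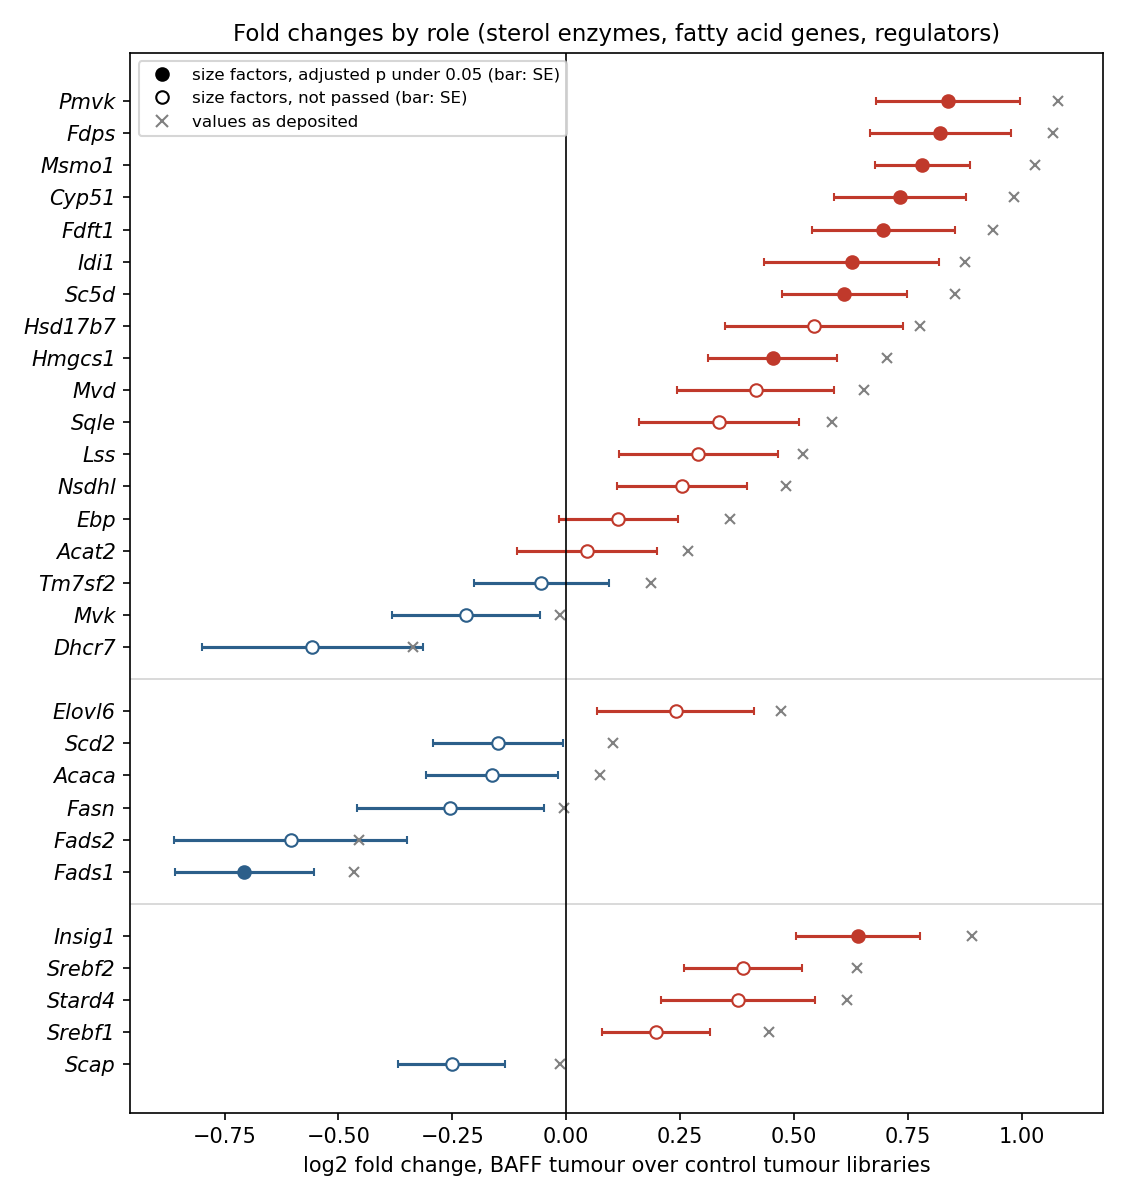
Log2 fold changes of the 29 genes, BAFF tumour over control tumour libraries, with SE bars after size factors (filled, adjusted p under 0.05) and crosses for the deposited values, ordered within sterol enzymes, fatty acid genes and regulators. The crosses lie to the right of the circles, by about the 0.23 that separates the scales over all genes, and the sterol enzymes run from Pmvk at 0.84 to Dhcr7 at -0.56.

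None of the fatty acid genes passed as higher. Of 6 tested, 0 rose, 1 fell and 5 did not pass, against 7.18% of all tested genes that rose and 9.91% that fell. At an unadjusted limma p under 0.05, 0 were higher and 2 lower, against 14.8% and 15.8% of all tested genes. Their median log2 fold change was -0.21, and was -0.11 without control tumour 2, -0.13 without BAFF tumour 2, -0.37 without control tumour 1 and -0.40 without BAFF tumour 3. Fads1, the delta-5 desaturase that makes arachidonic acid, stood at 16.2, 17.2 and 22.9 scaled CPM in BAFF tumour libraries and 31.2, 36.2 and 26.2 in controls. Every BAFF tumour library lay below every control, and Fads1 fell by 0.71 on the log2 scale (SE 0.15; adjusted p = 0.00806) and kept its call whichever library was left out (6 of 6 fits). Fads2, the delta-6 desaturase that acts before it, was scarce at 1.07, 1.302 and 1.85 scaled CPM with BAFF and 2.08, 4.35 and 1.895 in controls, down to 6 reads in a library. It did not pass (-0.60 ± 0.26, adjusted p = 0.131), though its groups narrowly did not overlap.

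The genes of chain building itself had overlapping groups. Fasn, fatty acid synthase, stood at 41.3, 48.5 and 76.3 scaled CPM with BAFF and 50.7, 79.1 and 65.4 in controls (-0.25 ± 0.21, adjusted p = 0.447), with BAFF tumour 3 and control tumour 2 both high. Acaca, acetyl-CoA carboxylase, which makes malonyl-CoA, had a log2 fold change of -0.16 ± 0.14 (adjusted p = 0.49). Elovl6, the elongase of palmitate, had 0.24 ± 0.17 (adjusted p = 0.386). Scd2, a stearoyl-CoA desaturase, was abundant at 134, 104 and 127 scaled CPM with BAFF and 109, 159.5 and 139.6 in controls (-0.15 ± 0.14, adjusted p = 0.529). Acaca and Scd2 had positive log2 fold changes on the deposited scale, 0.075 and 0.10, and did not pass there.

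Among the regulators, Insig1 rose. INSIG1 retains SCAP and SREBP in the endoplasmic reticulum, and its gene is itself a target of SREBP. It stood at 121, 132 and 168 scaled CPM with BAFF and 88.6, 102 and 77.4 in controls, without overlap, a log2 fold change of 0.64 ± 0.14 (adjusted p = 0.0072) that held in 6 of 6 leave-one-out fits. Srebf2 stood at 76.3, 72.8 and 96.3 scaled CPM with BAFF and 53.1, 66.3 and 66.97 in controls. Its BAFF tumour libraries also lay above the controls, but it missed the threshold (0.39 ± 0.13, adjusted p = 0.0609). Srebf1 stood at 42.4, 40.2 and 39.8 scaled CPM with BAFF and 29.9, 37.7 and 39.5 in controls, with BAFF tumour 3 barely above control tumour 3 (0.20 ± 0.12, adjusted p = 0.297). Gene-level values do not separate its isoforms, and 109 bases of its exons are shared with Rai1 on the opposite strand, so such reads are uncertain. Rai1 passed as lower (-0.63 ± 0.13, limma adjusted p = 0.00519), but not on the deposited scale (0.565). Scap, the escort of SREBP, which shares 985 bases with an opposite-strand gene, had its BAFF tumour libraries below the controls and did not pass (-0.25 ± 0.12, adjusted p = 0.175). Stard4 had overlapping groups (0.38 ± 0.17, adjusted p = 0.154). Of the regulators and Stard4, 5 genes in all, 1 rose, 0 fell and 4 did not pass, against 17.1% of all tested genes that passed in either direction. At an unadjusted limma p under 0.05, 3 were higher and 0 lower, against 14.8% and 15.8% of all tested genes.

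The sterol and fatty acid genes were also set against each other within libraries, where no size factor enters. The summed level of the 18 sterol enzymes was 2.497, 3.09 and 2.77 times that of the 6 fatty acid genes in BAFF tumour libraries 1, 2 and 3, and 1.62, 1.53 and 1.78 times in control tumour libraries 1, 2 and 3. Each BAFF tumour library lay above each control. Msmo1 stood at 3.37, 3.21 and 2.75 times Fads1 in BAFF tumour libraries and at 1.03, 0.867 and 1.36 times in controls. Hmgcs1 over Scd2 was less far apart, at 0.608, 0.878 and 0.885 with BAFF and 0.523, 0.456 and 0.557 in controls. BAFF tumour 1 was close to control tumour 3 there. The genes of these pairs were picked with their values known, and these ratios carry no test. The difference between the sterol and fatty acid groups was not tested.

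The scale of the libraries decided several calls. On the deposited values 4 of the 29 genes passed as higher, Pmvk (1.08, adjusted p = 0.0183), Fdps (1.07, 0.0207), Msmo1 (1.03, 0.0288) and Cyp51 (0.98, 0.043), and 0 as lower. On that scale 1.81% of all tested genes passed as higher and 3.50% as lower. The other calls were lost there, with adjusted p of 0.0564 for Fdft1, 0.0823 for Insig1, 0.0877 for Idi1, 0.0983 for Sc5d, 0.228 for Hmgcs1 and 0.483 for Fads1. The median over sterol enzymes was 0.68 on that scale and that over fatty acid genes 0.04, against 0.23 over all genes.

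Per kilobase of exon in GENCODE M21, the control libraries held most of Insig1 (28.9 scaled CPM per kilobase), followed by Scd2 (24.9), Cyp51 (16.6) and Hmgcs1 (15.04). The lowest were Fads2 (0.842) and Lss (0.976). In BAFF tumour libraries Insig1 reached 45.3 and Cyp51 27.6 scaled CPM per kilobase, above Scd2 at 22.3. The levels depend on the exon length used, which covers all annotated transcripts of a gene.

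Other genes of the same pathways were taken from lists chosen by function. Of 10 further sterol and isoprenoid enzymes tested, 0 rose, 0 fell and 10 did not pass, against 7.18% and 9.91% of all tested genes. Unadjusted limma p was under 0.05 for 2 as higher and 1 as lower, against 14.8% and 15.8% of all tested genes. Por, the reductase that supplies electrons to CYP51 and squalene epoxidase, was the most abundant and did not pass (0.27 ± 0.12, adjusted p = 0.153). Of 13 further genes of SREBP processing and sterol uptake 1 rose, 0 fell and 12 did not pass, a share near the 7.18% of all tested genes that rose (limma; 2 higher and 1 lower at an unadjusted p under 0.05). Npc1, which exports cholesterol from lysosomes, stood at 155, 145 and 144 scaled CPM with BAFF and 124, 113 and 122 in controls, without overlap. Its log2 fold change was 0.31 ± 0.09 (adjusted p = 0.0397), and of the 6 fits without 1 library the call held only in that without BAFF tumour 3 (at most 0.141). On the deposited scale its groups overlapped and it did not pass (adjusted p = 0.39). Npc2, its soluble partner and the most abundant of that list, did not pass (0.28 ± 0.11, adjusted p = 0.097).

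Of 21 tested genes of fatty acid and glyceride synthesis outside the 29, 2 rose, 6 fell and 13 did not pass, against 7.18% and 9.91% of all tested genes. On the deposited scale none of these 8 calls passed (limma, 0 higher and 0 lower), the smallest adjusted p being 0.0645 for Scd1. The calls not named below held in at most 2 of the 6 fits that left out 1 library. Scd1, the stearoyl-CoA desaturase most induced by lipogenic signals, stood at 2.04, 2.16 and 1.85 scaled CPM in BAFF tumour libraries and 4.63, 7.3 and 4.46 in controls. It fell by 1.07 on the log2 scale (SE 0.20; adjusted p = 0.00348), a call kept in 6 of 6 leave-one-out fits. Scd1 and Scd2 are paralogs of similar sequence, so the split of reads between them is uncertain. Acacb, the mitochondrial acetyl-CoA carboxylase, stood at 0.9697, 0.476 and 0.462 scaled CPM with BAFF and 1.59, 2.17 and 2.53 in controls (-0.92 ± 0.22, adjusted p = 0.0135), near the floor of a few reads, and was lost without BAFF tumour 2 or 3 (at most 0.0697). Elovl7, an elongase of saturated chains, was likewise scarce (-0.85 ± 0.21, adjusted p = 0.0154), and was lost without BAFF tumour 3 (0.0605). Elovl5, the elongase of polyunsaturated chains that works beside FADS1 and FADS2, rose instead, from 49.3, 44.9 and 53.4 in controls to 70.2, 68.2 and 61.4 scaled CPM (0.43 ± 0.10, adjusted p = 0.0145), and leaving out control tumour 2, BAFF tumour 1 or BAFF tumour 2 ended that call (at most 0.0625). Acly, which supplies acetyl-CoA to both pathways, was the most abundant and did not pass (0.12 ± 0.12, adjusted p = 0.545).

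**Figure D3:**
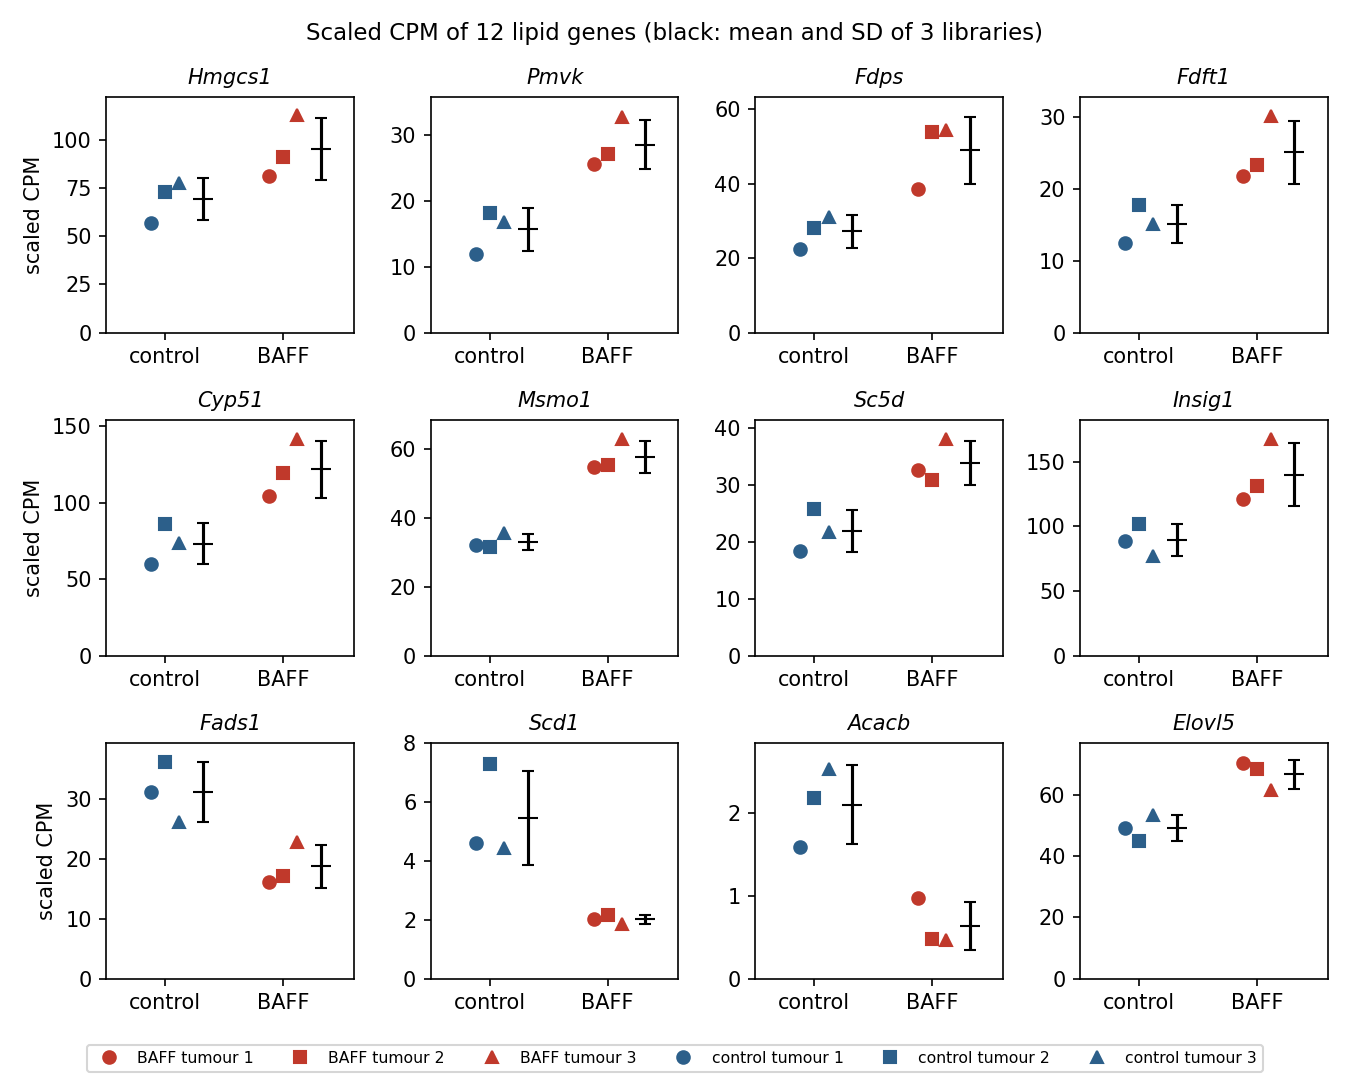
Scaled CPM of 12 genes in each library, with the mean and SD of 3 libraries in black and each axis starting at 0. Hmgcs1, Pmvk, Fdps, Fdft1, Cyp51, Msmo1, Sc5d, Insig1 and Elovl5 have their BAFF tumour libraries above the controls, and Fads1, Scd1 and Acacb below them.

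Markers of other cells moved in the same libraries, in which 7.18% of all tested genes rose and 9.91% fell. Of 10 tested melanoma markers 9 fell and 0 rose, and the summed level of the 11 listed ones was 166, 144 and 80.99 scaled CPM in BAFF tumour libraries and 589.8, 499 and 645 in controls, with Dct the most abundant. BAFF tumour library 3, with the lowest melanoma sum, had the highest sum of sterol enzymes. Of 14 cell cycle genes 13 fell and 0 rose, with sums of 199.9 to 206 against 449 to 517 scaled CPM and Mki67 the most abundant. Of 10 macrophage markers 7 fell and 0 rose (2455 to 2755 against 3750.0 to 4580.0), with Mrc1 the most abundant. Of 12 tested monocyte markers 6 rose and 0 fell (10479 to 11174 against 7228 to 9129). Lyz2, the most abundant of the monocyte markers, did not pass (0.32 ± 0.19, limma adjusted p = 0.29), and its groups overlapped. On the deposited scale 9 melanoma markers and 11 cell cycle genes passed as lower, 0 macrophage markers as lower, and 2 monocyte markers as higher. The shares of all tested genes on that scale were 1.81% higher and 3.50% lower. The summed level of the sterol enzymes was 545, 613 and 734 scaled CPM with BAFF and 356, 479.7 and 466 in controls, and that of the fatty acid genes 218, 198 and 265 and 220.1, 313 and 262. The part of these other cells and of dividing cells in the lipid genes was not tested. In a bulk sample, fewer cells of a type and less RNA per cell cannot be told apart.

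**Figure D4:**
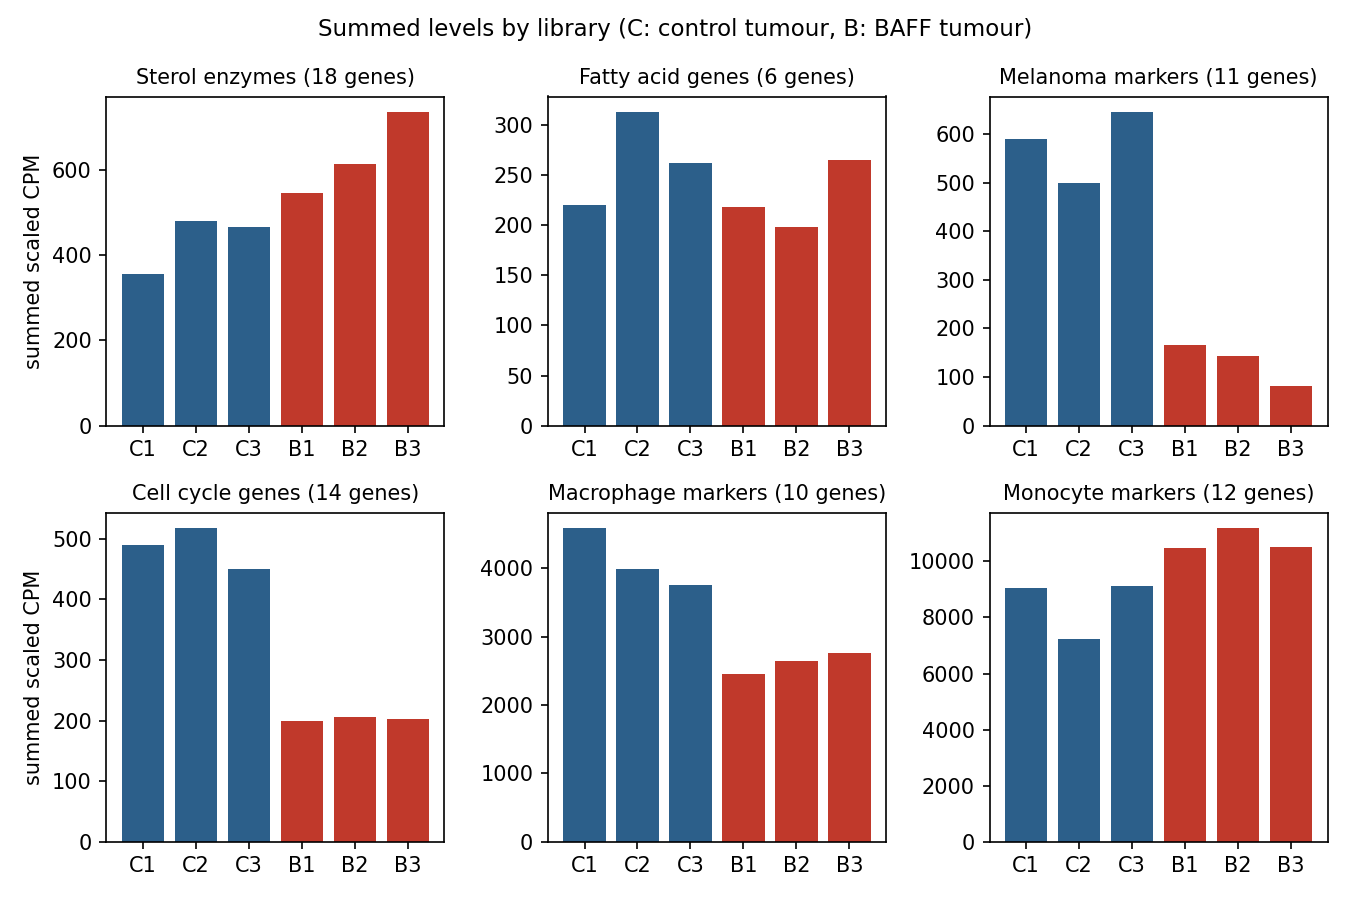
Bars give the summed scaled CPM per library of 18 sterol enzymes, 6 fatty acid genes and 4 marker lists, for control tumour (C) and BAFF tumour (B) libraries, each axis starting at 0. Melanoma markers lie at 80.99 to 166 with BAFF against 499 to 645 in controls, while sterol enzymes lie at 545 to 734 against 356 to 479.7.

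The other marker lists were small in sum or mixed. Their counts stand beside 7.18% of all tested genes that rose and 9.91% that fell (1.81% and 3.50% on the deposited scale). Neutrophil markers had 2 of 8 tested higher, and 4 on the deposited scale, and 0 lower (169 to 228 against 100.2 to 159 scaled CPM, led by Csf3r), dendritic cell markers 2 of 6 higher (31.4 to 41.2 against 19.4 to 29.4, led by Cd209a) and endothelial markers 2 of 4 higher, and 0 on the deposited scale (32.9 to 41.6 against 23.9 to 29.97, led by Pecam1). Fibroblast markers, led by Col3a1, summed to 56.4, 33.6 and 34.6 scaled CPM in BAFF tumour libraries and 203, 39.9 and 50.2 in controls, with control tumour 1, the library lowest in 15 of 18 sterol enzymes, far above the others. Of the 7, 1 passed as lower, Col1a1, named for that call, and it did not pass without control tumour 1, BAFF tumour 2 or BAFF tumour 3, or on the deposited scale. The part of fibroblast RNA in the sterol values of that library was not tested. T and NK cell markers had 0 of 5 called, also at an unadjusted limma p under 0.05 (7.49 to 15.3 against 8.54 to 15.1, led by Cd8a), and so did the 1 tested B cell marker, Cd79b. Of 6 keratinocyte and sebocyte markers 1 was measured, Krt10, at 0.173 scaled CPM or less. The 6 adipocyte markers, of a cell type that makes fatty acids, were not analysed here.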

How the data were processed

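The deposited values are CPM for 18341 genes in 6 libraries, normalized by the authors, a unit read from the values: its low values fall on steps, 84.7 to 86.4% of them whole to a tolerance of 0.02, which gave each library's depth but not each gene's reads, so no count model was used. Per the labels' protocols, the kit was TruSeq RNA v2, which does not mark strand. Bowtie2 2.2.5, STAR 2.4.1d and Partek appear, without roles, in the submitters' processing notes. For the build, the annotation and the counting rule: not given in the sources used here. Groups follow the sample titles; the source field of each sample gives B16.F10, whereas the design text gives sorted monocytes. The misspelt column "Conrol 2" was taken as control tumour 2. No replicate pair was alike within sampling noise.

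The deposited values were divided by median-of-ratios size factors and tested as log2(scaled CPM + 1), BAFF tumour against control tumour, with limma-trend (limma 3.58.1, R 4.3.3) over 12824 genes (mean CPM at least 1), Benjamini-Hochberg adjusted over all of them; the pseudocount of 1 understates changes of low genes. Errors of scaled CPM are SD (n = 3) and of fold changes SE. The test was checked on simulated data. The members and lists were chosen with earlier results of these data known. All 29 members are named, and from each further pathway list the genes that passed (at most the 4 with the smallest adjusted p) and the most abundant; from marker lists the most abundant. Some genes of the further lists are not reported here, and the counts leave them out. Symbols were compared with GENCODE M21 for exon length and overlap, and promoters come from RefSeq.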

Additional observations from a re-analysis of the deposited data

How the results depend on the processing

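All tested genes gave 2192 calls (921 higher, 1271 lower), and the 29 genes 9 higher and 1 lower. As deposited these were 681 (232 and 449), 4 and 0, with 4 sterol enzymes higher and 0 calls among fatty acid genes and 0 among regulators and Stard4. Requiring a log2 fold change of 1 gave 591 (53 and 538) and left 0 of the 29 genes, hence 0 in each of the 3 groups. The filter at a mean of 5 CPM, which tests fewer genes, gave 1367 (730 lower), and no trend gave 576 higher. No filter, which tests more genes, gave 2 calls among regulators and Stard4. With the replicate block 1940 genes and 2 regulators passed, Srebf2 being the added one (limma adjusted p = 0.0477). Deviations of same-numbered libraries correlated at -0.049 to 0.052 over all tested genes, and not every library correlated best with its own number. With 3 libraries in a group, these correlations cannot settle whether the numbers pair the samples. The block on deposited values, chosen after seeing the data, gave 608 (170 and 438) calls, 1 sterol enzyme and 1 of the 29 genes higher, 0 lower, 0 fatty acid genes and 0 regulators. Leaving out 1 library gave 1349 to 1830 calls (516 to 764 higher, 833 to 1172 lower), 7 to 9 of the 29 genes higher and 1 to 2 lower, 6 to 8 sterol enzymes higher and 0 to 1 lower. The lowest total came without BAFF tumour 2, and the second lower gene, Dhcr7, without BAFF tumour 3. Of the 29 genes, 9 passed as higher with TMM factors, 7 with upper-quartile factors, 7 with the 5 CPM filter and 7 with no trend. With a pseudocount of 0.1 there were 8, and with no filter 10 (Srebf2 added, limma adjusted p = 0.0499). Hmgcs1 and Idi1 were the calls lost, Hmgcs1 alone with that pseudocount. Higher calls over all tested genes were 980 with TMM factors, 690 with upper-quartile factors and 637 with the 5 CPM filter. They were 576 with no trend, 882 with that pseudocount and 1008 with no filter, against 921 in the main fit. Sign changes among genes that did not pass were Tm7sf2 (0.19 as deposited, also with the block, and -0.16 to 0.094 with 1 library left out, above 0 without BAFF tumour 1 or control tumour 3), Acat2 (-0.055 to 0.14, below 0 without control tumour 1), Acaca (0.075 as deposited, with or without the block) and Scd2 (0.10 likewise). Leaving out 1 library gave medians of -0.40 to -0.11 for fatty acid genes and 0.22 (without BAFF tumour 3) to 0.47 for regulators and Stard4. Depth limits scarce genes such as Fads2 and Acacb.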

Other observations

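Genes of the LXR sterol sensor and of cholesterol storage and export, only some of which respond to sterol load in the opposite sense to SREBP targets, formed a further list of 12. Of 12 tested, 2 rose, 0 fell and 10 did not pass, against 7.18% of all tested genes that rose and 9.91% that fell. At an unadjusted limma p under 0.05, 3 were higher and 2 lower, against 14.8% and 15.8% of all tested genes, with a median log2 fold change of 0.13. Arl4c, a small GTPase gene, stood at 193, 171 and 159.9 scaled CPM in BAFF tumour libraries and 109.8, 108 and 113 in controls (0.65 ± 0.10, adjusted p = 0.000916), and passed in all 6 fits without 1 library. Soat1, which esterifies cholesterol for storage, stood at 313, 324 and 277 scaled CPM with BAFF and 236, 236 and 242 in controls (0.35 ± 0.10, adjusted p = 0.0286), a call that held without BAFF tumour 3 and was lost without any other single library (at most 0.108). On the deposited scale neither call passed (adjusted p = 0.0762 for Arl4c and 0.341 for Soat1). Apoe, the most abundant, did not pass at 634, 424 and 589 scaled CPM with BAFF and 892, 444 and 855 in controls (-0.37 ± 0.24, adjusted p = 0.332).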
